A study of Mus musculus with 6 samples.

Results

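The 10 genes Wasl, Wipf1, Wipf2, Wipf3, Washc1, Washc2, Washc4, Washc5, Whamm and Jmy encode activators of the Arp2/3 complex outside the WAVE complex, together with proteins that bind them. They were chosen by name, with earlier results of these data known. All 10 were found by Ensembl identifier among the 18160 genes of the deposited table. The samples were prefrontal cortex taken at postnatal day 56 from C57BL/6J mice, with 3 samples heterozygous for a Cyfip2 mutation (HET) and 3 wild-type samples (WT), measured by RNA sequencing. The labels name no Cre driver and no agent and do not describe the mutated allele further. Nor do they state whether each sample is a different animal, and the p-values therefore reflect only how these samples scatter, which may be technical.

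The Arp2/3 complex nucleates a new actin filament on the side of an existing one, but it is nearly inactive until a nucleation-promoting factor binds it through a short C-terminal WCA region. WAVE proteins, held in a complex with CYFIP1 or CYFIP2, do this at the leading edge of the cell. N-WASP does it at sites of endocytosis and in dendritic spines after release by Cdc42, WASH does it on endosomes where retromer sorts receptors, and WHAMM and JMY do it on Golgi and autophagic membranes and, for JMY, also in the nucleus. The design asks how the cortical transcriptome differs when Cyfip2 is mutated on one allele, and the values below show whether transcripts of these parallel activators differed with it.

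None of the 10 genes differed detectably between genotypes. The HET level was between 88.8% and 106.9% of WT, no gene had an adjusted or an unadjusted p under 0.05 in limma-trend (a linear model per gene on log2 values, with variances shrunk toward a trend in level), and the HET and WT samples overlapped for every one of the 10. Over all 15151 genes tested, 0.0132% passed the adjusted threshold, 5.07% had an unadjusted p under 0.05 and 10.5% had genotypes that did not overlap. The 2 genes past the threshold were Cyfip2, which fell, and Gm6158, a pseudogene outside the lists and named after its value was seen, which had 26.2 to 30.2 normalized counts in HET and was listed at 0 in all WT samples. The Gm6158 call was lost without any 1 of the HET samples (adjusted p of 0.10 to 0.29 by limma-trend) and with a mean of at least 50, where the gene was not tested. By limma without the trend Gm6158 was the only gene to pass (adjusted p = 8.7e-06). Of the 10 genes, 7 had estimates below 0 and 3 above 0, with a median log2 fold change of -0.014, against 0.0020 over all genes tested; without WT sample 2 the median of the 10 was -0.053. The estimates are narrow enough to give bounds: the 95% intervals of the 10 log2 fold changes reached down to -0.47, short of the -0.63 of Cyfip2, and up to 0.30.

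Cyfip2, the mutated gene, had 28356, 28578 and 29567 normalized counts in HET samples 1, 2 and 3, against 45454, 43174 and 45627 in WT samples 1, 2 and 3. Every HET value lay below every WT value. The HET level was 64.4% of WT (95% interval 59.7% to 69.5%), which is -0.63 ± 0.05 (SE) on the log2 scale (adjusted p = 0.0027 by limma-trend). By limma without the trend the log2 fold change was the same and the adjusted p was 0.15, which did not pass. Sample totals were 36.4 to 37.1 M normalized counts (M stands for 1e+06). Read depth is known only by a rough estimate from the lowest values, at 27.1 to 47.5 M reads. All 10 neuronal markers were above 0 in every sample. Summed neuronal markers were 434815 to 444296 in HET and 451048 to 469383 in WT, with 4 of 10 genes above WT, and summed striatal markers were 10699 to 11569 in HET and 12223 to 13580 in WT, with 3 of 10 above WT. In both lists every HET sum was below every WT sum, while no single marker had an adjusted p under 0.05 by limma-trend. How often sums of 10 genes separate in this way was not computed. The part of these markers in the values below was not tested, and in bulk tissue fewer cells of a type and less RNA per cell cannot be told apart.

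**Figure D1:**
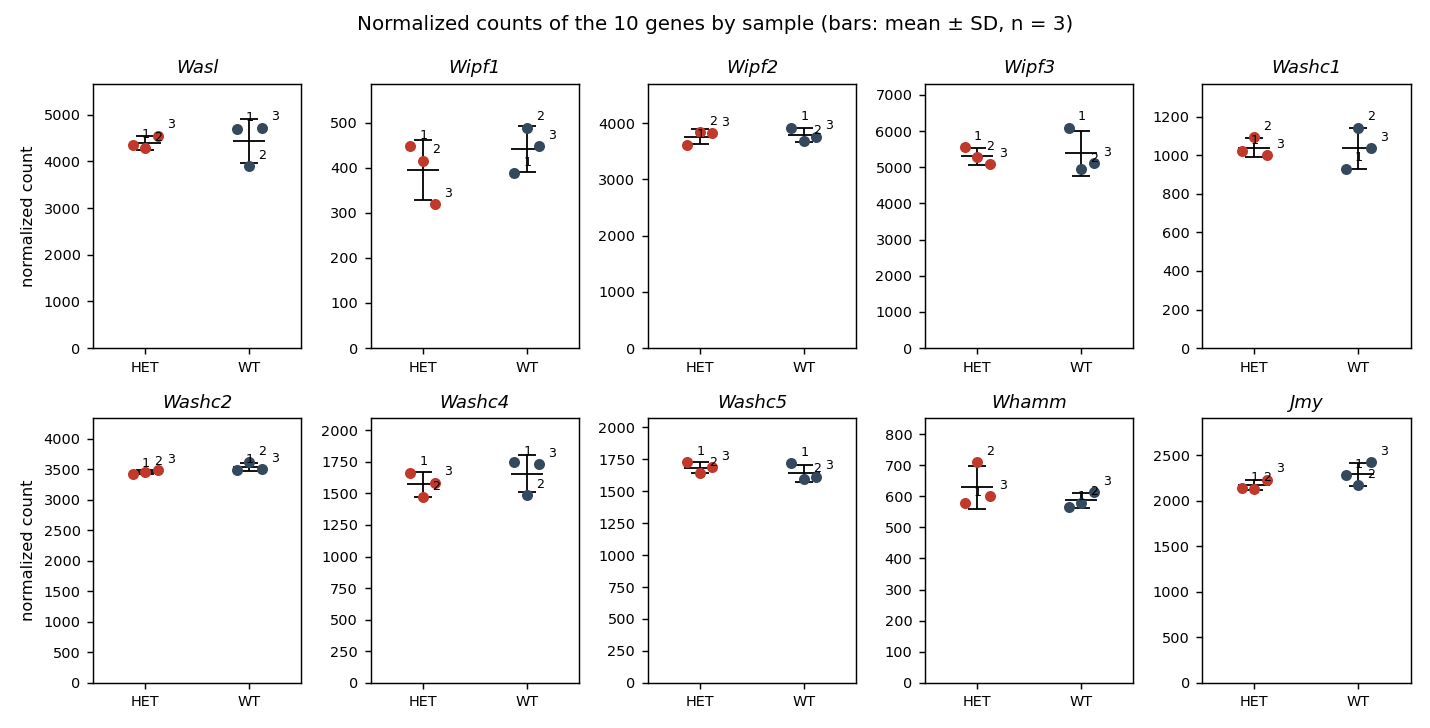
Normalized counts of each of the 10 genes in the 3 HET samples (red) and the 3 WT samples (blue); digits give the sample number, bars the mean and SD. In every panel the HET and WT points overlap; the widest HET scatter is that of Wipf1, with a coefficient of variation of 17.0%.

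Wasl encodes N-WASP, the relative of WASP that most tissues use. Its gene spans 24613805 to 24665009 of chromosome 6 (GRCm38, minus strand). It had 4344, 4277 and 4552 normalized counts in HET samples 1, 2 and 3, against 4699, 3894 and 4720 in WT samples 1, 2 and 3. The 3 HET values lay inside the range of the WT values, where WT sample 2 stood below all other samples. The log2 fold change of -0.010 ± 0.077 (SE) had a 95% interval of -0.18 to 0.16 and an adjusted p of 1.00 by limma-trend, so that HET could lie between 88.2% and 112% of WT. The coefficient of variation was 3.26% in HET and 10.6% in WT, where counting error at the implied depth was at most 1.70%. Was, the separate gene of the blood-cell WASP, had 34.7 to 48.1 normalized counts in HET and 40.6 to 48.5 in WT. Per kilobase of transcript, Wasl made up 98.1% ± 0.34 of the Wasl and Was sum in HET and 98.0% ± 0.30 in WT (SD, n = 3 each).

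The WIP proteins hold N-WASP in its closed state, protect it from degradation and bind actin themselves. Wipf3, also known as CR16, is the family member known from brain and testis. The gene spans 54429603 to 54503768 of chromosome 6 (plus strand) and was the most abundant of the 3. It had 5551, 5276 and 5076 normalized counts in HET samples 1, 2 and 3, against 6091, 4943 and 5115 in WT samples 1, 2 and 3. WT sample 1 was the highest and WT sample 2 the lowest of the 6 samples, and the HET values lay between them. On the log2 scale the difference was -0.017 ± 0.079 (SE; 95% interval -0.19 to 0.16, adjusted p = 0.99 by limma-trend). The span of Wipf3, introns included, overlaps that of Scrn1, on the opposite strand, over 2596 bases. The kit marks strand, but the sources used here do not give whether counting used it. Scrn1 was the only gene overlapping any of the 10 that was itself in the deposited table. Genes outside the table overlapped other spans, on the same strand Gm42856 with Wasl (2852 bases) and Gm45698 with Whamm (1135 bases).

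Wipf2, also known as WIRE or WICH, spans 98863638 to 98905040 of chromosome 11 (plus strand). Its normalized counts were 3612, 3847 and 3819 in HET samples 1, 2 and 3, against 3919, 3686 and 3763 in WT samples 1, 2 and 3. All 6 values were close together, with a coefficient of variation of 3.41% in HET and 3.14% in WT. Its log2 fold change was -0.012 ± 0.053 (SE), and HET lay between 91.3% and 108% of WT by the 95% interval (adjusted p = 0.99 by limma-trend).

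Wipf1 encodes WIP itself, which is abundant in blood-derived cells. Wipf1 spans 73429610 to 73529734 of chromosome 2 (minus strand) and was the lowest of the 10 genes. It had 448, 415 and 319 normalized counts in HET samples 1, 2 and 3, against 389, 488 and 447 in WT samples 1, 2 and 3. HET sample 3 was the lowest and WT sample 2 the highest, and the other 4 samples were interleaved. The mean was 394 ± 67.0 in HET and 441 ± 50.2 in WT (SD, n = 3 each), with a log2 fold change of -0.17 ± 0.14 (SE), a 95% interval of -0.47 to 0.13 and an adjusted p of 0.96 by limma-trend. This was the widest interval among the 10, so HET could lie between 72.0% and 110% of WT. Without HET sample 3 the log2 fold change was -0.026. Counting error at the implied depth was at most 5.99%, below the 17.0% coefficient of variation of HET and the 11.4% of WT. Summed normalized counts of 12 microglial markers were 17570, 17827 and 17059 in HET samples 1, 2 and 3, against 15244, 18874 and 16747 in WT samples 1, 2 and 3, highest in WT sample 2 as Wipf1 was, but not lowest in HET sample 3. Of the 12, 8 were above WT and none was at 0 in any sample. Summed astrocyte markers (215947) and oligodendrocyte markers (180676) were also highest in WT sample 2, so this feature was not particular to microglia. Summed neuronal markers were highest in WT sample 1 (469383) and endothelial markers in HET sample 2 (18479). The part of any marker list in the Wipf1 values was not tested.

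The proportions within the WIP family differed little between genotypes. Per kilobase of the longest coding transcript, Wipf3 made up 65.4% ± 1.21 of the family in HET and 65.2% ± 2.29 in WT, Wipf2 29.9% ± 1.73 in HET and 29.7% ± 1.37 in WT, and Wipf1 4.64% ± 0.66 in HET and 5.16% ± 0.95 in WT (SD, n = 3 each). These differences between genotypes were smaller than the SD within either one. Divided by the union of all annotated exons, the Wipf3 share was 57.6% in HET and 57.4% in WT, and the order of the 3 genes did not alter.

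**Figure D2:**
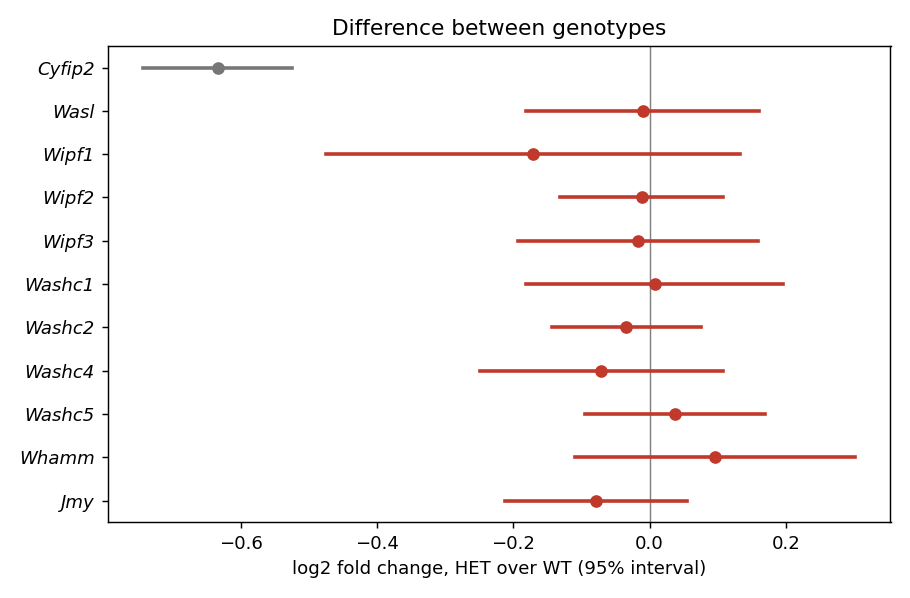
Log2 fold change of HET over WT (points) with 95% intervals from limma-trend (lines) for Cyfip2 (grey) and the 10 genes (red). The Cyfip2 interval, -0.74 to -0.52, is left of every other interval, and all 10 red intervals cross 0.

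WASH is held in a complex of WASHC1 to WASHC5 on endosomes. Washc1, which encodes the subunit with the WCA region, spans 66111545 to 66120503 of chromosome 17 (plus strand). It had 1022, 1095 and 1000 normalized counts in HET samples 1, 2 and 3, against 931, 1143 and 1037 in WT samples 1, 2 and 3. The 3 HET values lay within the range of the WT values. Its log2 fold change was 0.0077 ± 0.084 (SE), with a 95% interval of -0.18 to 0.20 and an adjusted p of 1.00 by limma-trend.

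Washc2 encodes FAM21, whose long tail binds retromer and brings the complex to endosomes. The gene spans 116208038 to 116262686 of chromosome 6 (plus strand). Its normalized counts were 3415, 3447 and 3486 in HET samples 1, 2 and 3, against 3482, 3610 and 3504 in WT samples 1, 2 and 3. HET sample 3 was just above WT sample 1, and apart from that pair every HET value was below every WT value. The estimated log2 fold change was -0.034 ± 0.049 (SE; 95% interval -0.14 to 0.076, adjusted p = 0.99 by limma-trend). An exact permutation test (two-sided) gave p = 0.2; with 3 against 3 samples it cannot go below 0.1. Washc2 was the steadiest of the 10: its SD within genotypes was 0.022 on the log2 scale, at percentile 1.00 among the 500 tested genes nearest to it in level.

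Washc4, also called SWIP, encodes the large scaffold subunit. The gene spans 83543752 to 83596473 of chromosome 10 (plus strand). It had 1664, 1468 and 1585 normalized counts in HET samples 1, 2 and 3, against 1744, 1485 and 1731 in WT samples 1, 2 and 3. HET sample 2 and WT sample 2 were the lowest, set apart from the other 4 samples. The log2 fold change of -0.071 ± 0.080 (SE) had an interval of -0.25 to 0.11 and an adjusted p of 0.98 by limma-trend.

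Washc5 encodes strumpellin, the subunit mutated in a hereditary spastic paraplegia, and spans 59331997 to 59374167 of chromosome 15 (minus strand). It had 1725, 1643 and 1687 normalized counts in HET samples 1, 2 and 3, against 1718, 1593 and 1614 in WT samples 1, 2 and 3. The HET values were the higher ones save for WT sample 1. On the log2 scale the difference was 0.038 ± 0.059 (SE; interval -0.094 to 0.17, adjusted p = 0.99 by limma-trend).

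Washc3, the small coiled-coil subunit, not one of the 10 and named after its values were seen, had 293 ± 32.8 normalized counts in HET and 285 ± 14.8 in WT (SD, n = 3 each). With it, the subunits could be set side by side per kilobase. Washc2 held 37.7% ± 0.37 of the summed WASH subunit level in HET and 38.4% ± 0.43 in WT, Washc5 19.7% ± 0.67 in HET and 19.1% ± 0.87 in WT, and Washc1 16.8% ± 0.70 in HET and 16.7% ± 1.59 in WT (SD, n = 3 each). Washc2 was thus above Washc1, Washc4 and Washc5 in level per kilobase in each genotype. The shares depend on the length used. By the exon union Washc2 held 31.7% in HET and 32.2% in WT, and Washc5 27.5% in HET and 26.6% in WT. Washc4 was at 12.65% in HET and 13.21% in WT by the longest coding transcript. By the exon union it was at 17.87% in HET and 18.65% in WT. Washc3 was at 13.1% in HET and 12.7% in WT by the longest coding transcript, and at 4.48% in HET and 4.33% in WT by the exon union.

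Whamm encodes an activator that binds microtubules and shapes membranes between the endoplasmic reticulum and the Golgi. Whamm spans 81571266 to 81596836 of chromosome 7 (plus strand). It had 578, 709 and 600 normalized counts in HET samples 1, 2 and 3, against 566, 579 and 614 in WT samples 1, 2 and 3. HET sample 2 was far above the other 5 samples, which were interleaved. The estimate was a log2 fold change of 0.096 ± 0.092 (SE), with an interval of -0.11 to 0.30 and an adjusted p of 0.97 by limma-trend, and without HET sample 2 it was 0.0072.

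Jmy encodes a protein that nucleates filaments by itself as well as through Arp2/3 and that also acts with p300 on p53 targets. Jmy spans 93430101 to 93499808 of chromosome 13 (minus strand). It had 2139, 2133 and 2230 normalized counts in HET samples 1, 2 and 3, against 2277, 2173 and 2420 in WT samples 1, 2 and 3. WT samples 1 and 3 were above all HET samples, and WT sample 2 fell among them. The estimated log2 fold change was -0.078 ± 0.060 (SE), with an interval of -0.21 to 0.056, the smallest unadjusted p of the 10 genes at 0.22, and an adjusted p of 0.95 by limma-trend. Per kilobase, Whamm made up 45.3% ± 2.99 of the Whamm and Jmy sum in HET and 42.3% ± 0.88 in WT (SD, n = 3 each). Every HET share (43.48% to 48.71%) was above every WT share (41.54% to 43.25%), narrowly so. The shares were not tested, and how often shares separate in this way was not computed.

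**Figure D3:**
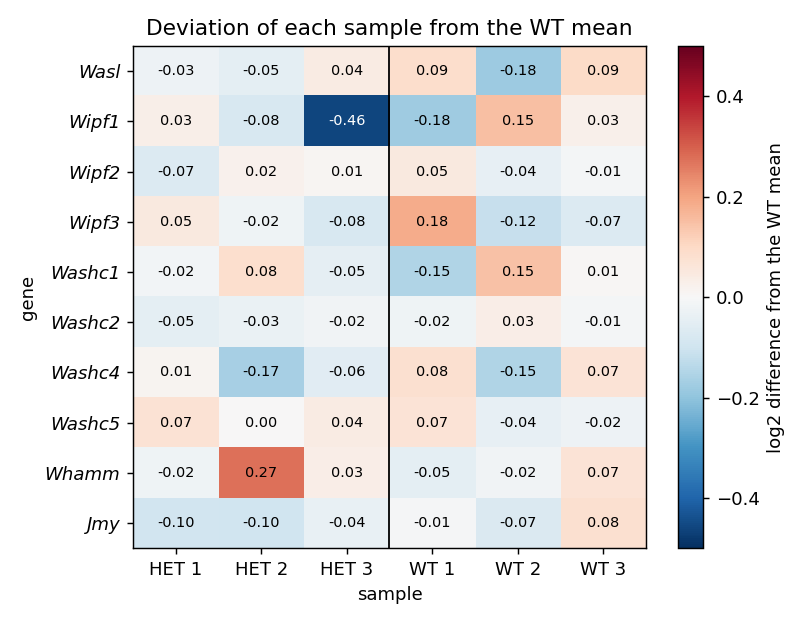
Log2 difference of each sample (columns) from the WT mean of each gene (rows); red is above and blue below, and the black line separates HET from WT. The largest departures are Wipf1 in HET sample 3 (-0.46) and Whamm in HET sample 2 (0.27), each in 1 HET sample only.

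With 10 genes over 6 samples, some genes must share the sample of their extreme value, so the following is a description. WT sample 2 was the lowest of all 6 samples for Wasl, Wipf3 and Washc5 and the highest for Wipf1, Washc1 and Washc2. In that sample summed oligodendrocyte markers were 180676, against 125901 to 135422 in HET and 129345 to 137997 in the other WT samples; all 10 of these markers had estimates below WT and none was at 0 in any sample. Their part in the member values was not tested. WT sample 1 was the highest for Wipf2, Wipf3 and Washc4 and the lowest for Washc1 and Whamm. Beside the 500 tested genes nearest in level, the SD within genotypes stood at percentile 89.2 for Wipf1, 87.6 for Wipf3 and 82.8 for Wasl, at 71.8 for Washc4, and at 31.0 for Jmy, 13.8 for Washc5 and 1.00 for Washc2.

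Levels of different genes were compared after division by the length of the longest coding transcript in GENCODE M21. In this order the genes were Wipf3 (1094 to 1349 normalized counts per kilobase over the 6 samples), Wasl (895 to 1085), Washc2 (793 to 838), Wipf2 (515 to 559), Washc5 (395 to 428), Washc1 (320 to 393), Washc4 (251 to 298), Jmy (243 to 276), Whamm (184 to 231) and Wipf1 (67.6 to 103). The samples of neighbours in this order overlapped only for Washc4 and Jmy. Divided by the exon union instead, Wipf2 (485 on average in WT) came above Washc2 (468 in WT), their samples overlapping, Wasl (632 to 766) overlapped Wipf3 (695 to 856), and Washc1 (238 to 293) overlapped Washc4 (241 to 286), while the other positions stayed. N-WASP and its brain-type partner Wipf3 were thus the most abundant transcripts of the 10 by either length.

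**Figure D4:**
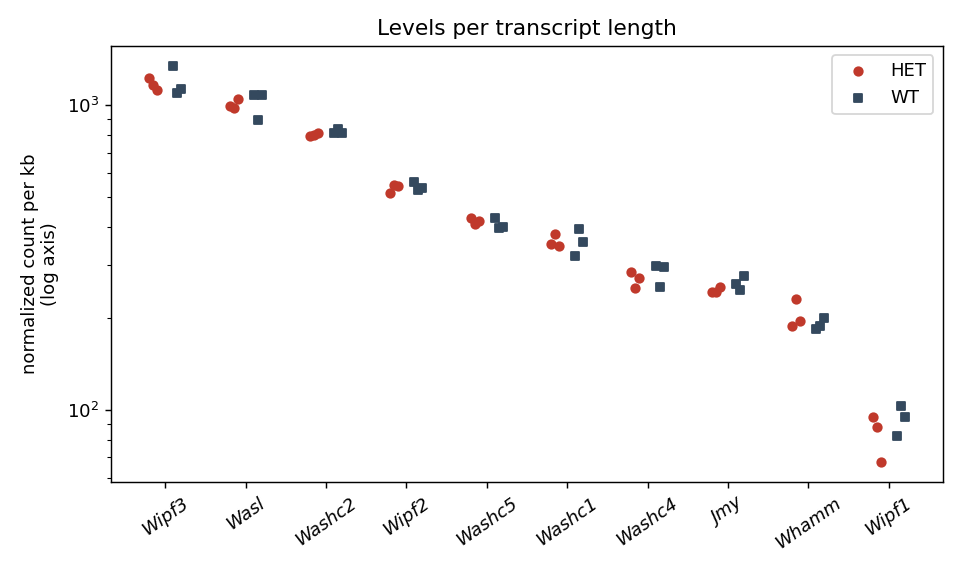
Normalized counts per kilobase of the longest coding transcript (log axis) for the 10 genes in descending order, with HET samples as red circles and WT samples as blue squares. Levels run from 1349 for Wipf3 to 67.6 for Wipf1, and within each gene the red and blue points overlap.

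Several of these genes shared a short sequence in their start regions. It was picked after these sequences had been read, so its share here is a description and not a test. RefSeq start regions (GRCm38.p6, 250 bases before to 50 after the annotated start) were at hand for 9 of the 10 genes, all but Washc5. Both strands were searched for 6 motifs. The E-box CACGTG, a palindrome bound by basic helix-loop-helix proteins, was in 5 of the 9 genes (Jmy, Washc1, Washc2, Washc4 and Wipf2), against 10.8% of the 12869 genes of the table with a start region and 8.09% of all 27025 genes. It was thus in each of the 3 WASH subunit genes that could be searched. The windows below show where it lies in each gene, with the E-box in capitals, on the strand of the gene, 5′ to 3′.
Washc1: ggcggggacgctCACGTGaggacgccgcct
Washc2: tgcgccccaggtCACGTGaggacaccatca
Washc4: gaagccggaagtCACGTGccgtgacagcgg
Wipf2: gcgctccgccccCACGTGcgccggtagagg
Jmy: agcagcgtgccgCACGTGcccgtgtttacg

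The windows are chr17:66111616-66111645 (plus strand), chr6:116208000-116208029 (plus), chr10:83543947-83543976 (plus), chr11:98863532-98863561 (plus) and chr13:93499765-93499794 (minus). Counted from the RefSeq start, with -1 the last base before it, the E-box begins at -17 from the second of the Washc1 starts, at -21 and again at -5 in Washc2, at 19 in Washc4, at -54 in Wipf2 and at 27 in Jmy. In Washc4 the letters CCGGAAGT, an ETS motif, stand directly before the E-box; this motif was in 2 of the 9 genes, Washc1 and Washc4, against 7.42% of the genes of the table. The GC box GGGCGG was in 8 of 9 genes, all but Washc2, against 62.8%, and TATAAA in Washc4 only, against 9.91%. TGACGTCA and AAGATGGC were in none, against 3.14% and 4.39%. The motifs were picked after the sequences had been read, a match is a description and not a binding site, and the 5 genes with the E-box had estimates on both sides of 0 (Washc1 0.0077, Washc2 -0.034, Washc4 -0.071, Wipf2 -0.012 and Jmy -0.078).

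The wider pathway was examined in 75 partner genes in 6 lists, all of which were tested. None had an adjusted p under 0.05 in limma-trend, 2 (2.67%) had an unadjusted p under 0.05, against 5.07% over all genes, and in 6 the genotypes did not overlap, against 10.5%. With counts this small, the lower shares are a description and not a result about the partner genes.

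The 22 activators and SH3-domain partners of N-WASP had 7 estimates above and 15 below 0, with a median log2 fold change of -0.031. Cdc42, the small GTPase that opens N-WASP, had 9217, 8730 and 9376 normalized counts in HET samples 1, 2 and 3, against 9065, 8225 and 8438 in WT samples 1, 2 and 3. HET sample 2 lay below WT sample 1, so the groups overlapped, at a log2 fold change of 0.087 ± 0.056 (SE). Pacsin2, a membrane-bending F-BAR protein whose SH3 domain binds N-WASP, was at -0.11 ± 0.062 (SE). Src, a tyrosine kinase named after its values were seen, was the single gene of this list whose genotypes did not overlap, at 4413 to 4670 in HET and 4692 to 4788 in WT. The 3 further activators Was, Cttn and Hcls1 all had estimates below 0, with Was, the blood-cell WASP, at -0.14 ± 0.21 (SE) and Hcls1, the blood-cell relative of cortactin, at -0.093 ± 0.15 (SE). Both were low, Hcls1 at 107 to 145 normalized counts in HET and 126 to 146 in WT.

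The 19 genes of WASH partners and retromer split evenly, 10 above and 9 below 0, with a median of 0.0019 that was -8.5e-04 after rescaling by a trimmed mean of log ratios (TMM). Vps26a, a core retromer subunit, had 1519, 1633 and 1808 normalized counts in HET samples 1, 2 and 3, against 1875, 1765 and 1782 in WT samples 1, 2 and 3. HET sample 3 overlapped the WT samples, and the log2 fold change was -0.13 ± 0.073 (SE). Fkbp15, which binds the WASH complex, was at 0.11 ± 0.069 (SE). The COMMD, CCDC22 and CCDC93 complex, which joins WASH on endosomes through the FAM21 tail, had 4 of 14 estimates above and 10 below 0, with a median of -0.037. In 3 of the 14 (Commd2, Commd6 and Commd10, the last named after its values were seen) every HET value was below every WT value. Genotypes did not overlap in 21.4% of this list, against 10.5% of all genes tested, in either direction. The share over all partner genes, 8%, includes these 3 genes. With 3 of 14 genes, the higher share is a description and not a result about this list. Commd6 had 385, 424 and 418 normalized counts in HET samples 1, 2 and 3, against 464, 467 and 459 in WT samples 1, 2 and 3. The log2 fold change was -0.18 ± 0.080 (SE), at an unadjusted p of 0.048 and an adjusted p of 0.95 by limma-trend, which did not pass. Commd2 was at -0.14 ± 0.090 (SE).

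The 7 partners of WHAMM and JMY had 5 estimates above and 2 below 0, with a median of 0.010. Rab1a, the small GTPase that recruits WHAMM, was at 0.098 ± 0.078 (SE), and Trp53, the p53 gene whose targets JMY acts on, at -0.13 ± 0.095 (SE); without HET sample 1 they were at 0.034 and -0.042. Ep300, the p300 gene and the only one of the list whose genotypes did not overlap, was named after its values were seen and had 3021 to 3153 normalized counts in HET and 3158 to 3230 in WT. Proteins that hold Arp2/3 in check or take branches apart had 7 of 10 estimates above and 3 below 0, with a median of 0.030. Coro1b, a coronin that removes Arp2/3 from branches, had 2465, 2486 and 2510 normalized counts in HET samples 1, 2 and 3, against 2097, 2426 and 2176 in WT samples 1, 2 and 3. All HET values were above all WT values, narrowly so for WT sample 2 and HET sample 1. On the log2 scale the difference was 0.16 ± 0.065 (SE), at an unadjusted p of 0.035 and an adjusted p of 0.95 by limma-trend, which did not pass. Coro2b, a brain coronin, was at -0.093 ± 0.057 (SE).

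**Figure D5:**
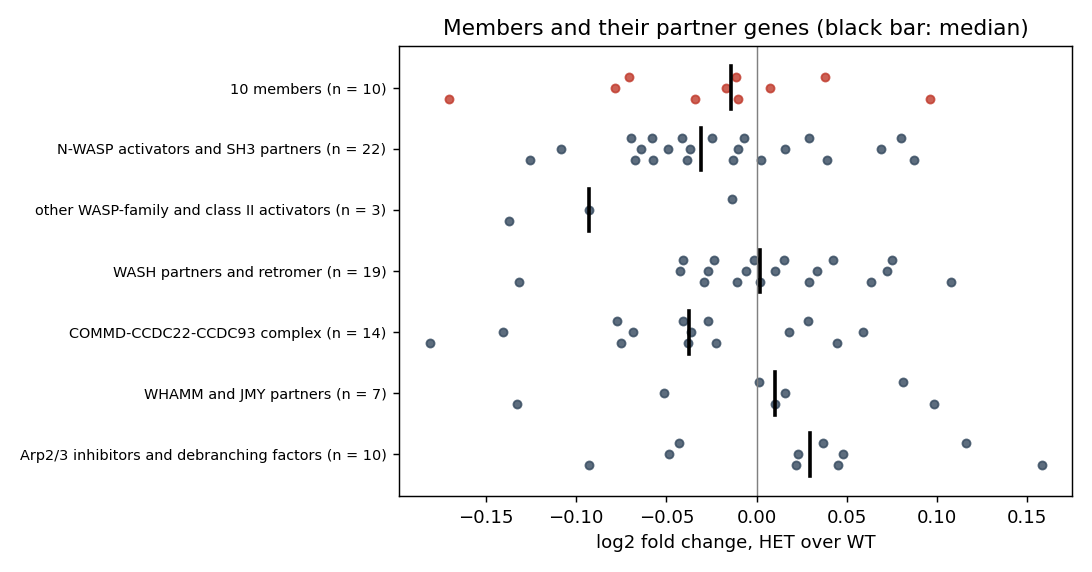
Log2 fold changes of HET over WT for the 10 genes (red) and the 75 partner genes (blue) by list, each point 1 gene and each black bar the list median. All points lie between -0.18 and 0.16, and the list medians between -0.093 and 0.030.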

How the data were processed

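The deposited table holds normalized counts per gene (a signal scaled between samples by the authors; neither raw counts nor per length). Per the submitters' processing notes, Salmon 0.11.2, R 3.6.0, DESeq2 1.19.11 and GRCm38 were used, without the role of each; per the labels' protocols, libraries were made with a stranded mRNA kit. For the implied depth the most common value up to 1.6 in a sample was taken as 1 read, a limit set with the step sizes of these data known. Only 11 to 23 genes per sample held that value, so the depths and the counting errors drawn from them are rough. Symbols and positions came from GENCODE M21 (18122 identifiers matched, 38 did not), start regions from RefSeq. After a pseudocount of 1 and a log2 transform, limma 3.58.1 (R 4.3.3; limma-trend, genotype alone in the model) was run on genes averaging at least 10 normalized counts, with p-values adjusted by Benjamini-Hochberg over all 15151 genes; the edgeR test foreseen for raw counts was not run. The log2(value + 1) scale understates changes of low genes. Named were Cyfip2, the 10 genes, the 2 partners with the smallest p in each list and the 3 genes most like Wasl. Members and lists were chosen with earlier results of these data known. With blastn 2.17.0, the longest coding transcript of each of the 10 genes was searched on its own strand, with low-complexity stretches masked. Those of Wipf2, Washc4 and Washc1 shared stretches of at least 100 bases at 90% identity or more with 635, 348 and 69 other genes. The longest stretches were 194, 218 and 352 bases, and the other 7 transcripts searched shared none. Tried as alternatives were rescaling by a trimmed mean of log ratios (TMM, unweighted), limma without trend or robust, other filters and pseudocounts, a threshold of 0.1, the sample number as block and leaving out each sample. No pair of samples had an identical value above 0.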

Additional observations from a re-analysis of the deposited data

How the results depend on the processing

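No member and no partner gene passed an adjusted p of 0.05 under any of the 14 other fits or at a threshold of 0.1; the smallest adjusted p of a member over those fits was 0.68, for Jmy. Over all genes, 2 passed as reported, 1 by limma without the trend (Gm6158) and 1 with a mean of at least 50 (Cyfip2). When single samples were left out, 1 to 4 passed (1 without HET sample 1, 4 without HET sample 3 and 4 without WT sample 1). A call of a higher gene was absent without HET sample 1, 2 or 3 and with a mean of at least 50. Without the trend Cyfip2 kept its log2 fold change of -0.63 but had an adjusted p of 0.15; the cause was not tested. Leaving out single samples turned the sign of small estimates: log2 fold changes ran from -0.10 to 0.037 for Wasl, from -0.031 to 0.017 for Wipf2, from -0.075 to 0.075 for Wipf3, from -0.068 to 0.080 for Washc1 and from -0.20 to 0.024 for Hcls1. Same-numbered HET and WT samples had correlations of deviations of 0.13, 0.12 and -0.0052. HET samples 1 and 2 correlated best with their own number, and HET sample 3 did not. HET sample 2 and WT sample 2 were the closest of all pairs, with a median absolute log2 difference of 0.094. Whether same-numbered samples share more than a number was not tested. With the replicate number as a block 2 genes passed and no member, but Gm6158 did not (adjusted p = 0.060 by limma-trend). The SE of each of the 10 genes was smaller with the block, for Wasl 0.055 against 0.077. With single samples left out, list medians ran from -0.053 to -0.0087 for the 10 genes, -0.041 to -0.0062 for N-WASP partners, -0.20 to 0.017 for the further activators, -0.0080 to 0.027 for WASH partners, -0.054 to -0.019 for the COMMD list, -0.0061 to 0.036 for WHAMM and JMY partners and 3.2e-04 to 0.053 for inhibitors. TMM rescaling moved the median of all genes to -7.3e-04. With low values read up to 3 or 5 in place of 1.6, limits chosen after seeing the data, the implied depth of each sample was unchanged, and up to 1.2 that of WT sample 3 was 34.0 M reads, on 2 genes, against 27.1 M. At the depths as reported, counting error was at most 18.3% for Was and 10.3% for Hcls1.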

Other observations

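Of the 13310 other genes with a mean of at least 50, Ube2g1, Cdc27 and Dr1 had the pattern over the 6 samples most like that of Wasl, by the root mean square difference of centred log2 values (0.018, 0.019 and 0.020). Ube2g1, a ubiquitin-conjugating enzyme gene, had 1860, 1798 and 1976 normalized counts in HET samples 1, 2 and 3, against 1973, 1656 and 2041 in WT samples 1, 2 and 3, lowest in WT sample 2 as Wasl was. The 3 genes were picked out of all others for this likeness, which is a description. Astrocyte, endothelial and meningeal markers were above WT in 8 of 10, 9 of 10 and 9 of 10 genes; summed, they were 195815 to 214697, 16456 to 18479 and 7499 to 8220 in HET, and 183937 to 215947, 14381 to 18016 and 6374 to 7935 in WT, with overlap in each list. Of 10 lymphocyte and blood markers, 8 were listed in the table, and their sum was 6448 to 7052 in HET and 5937 to 7717 in WT.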
